A study of Mus musculus with 9 samples.

Results

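Transcript signals of 10 genes of Toll-like receptor biology were compared in splenic follicular B cells of mice with 3 heavy chain genotypes. The genes were the Toll-like receptors Tlr1, Tlr2, Tlr3, Tlr4, Tlr6, Tlr7 and Tlr9, and 3 partners that B cells use, Cd180, Ly86 and Unc93b1. They were chosen by symbol from the 22180 genes that had a probe set with a single annotated symbol, and each of the 10 had 1 such probe set. The cells were sorted from spleen and hybridised to 9 single-colour arrays, 3 per genotype. The genotypes were ε/ε (Igh[epsilon]/[epsilon] VJk5), γ1/γ1 (Igh[gamma]1/[gamma]1 VJk5) and wild-type (Ighwt VJk5). All of them carry VJk5 in the label, which the labels do not explain, and all mice were 6 to 12 weeks old. The series' title names the dosage of the B cell receptor by heavy chain isotype as the subject. How the alleles were made is not in the labels, nor whether the 3 replicates of a genotype came from different animals; the spread that each p-value is set against is therefore that between these samples, which may be technical. With 9 arrays, the number of arrays limits the precision.

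Toll-like receptors bind conserved parts of microbes. Tlr1, Tlr2, Tlr4 and Tlr6 act at the cell surface on lipopeptides and lipopolysaccharide, whereas Tlr3, Tlr7 and Tlr9 act in endosomes on nucleic acids and need the transport protein Unc93b1 to get there. Most of them signal through the adaptor Myd88 to NF-κB, and in B cells they can drive activation, proliferation and antibody secretion alongside the B cell receptor. Cd180, a surface receptor related to Tlr4 that lacks the signalling domain of the Toll-like receptors, works as a complex with the secreted partner Ly86.

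In ε/ε cells the surface receptor Tlr1 fell, and the DNA receptor Tlr9 and its transport protein Unc93b1 rose, relative to wild-type cells. Tlr1 signal was 2.54-fold lower, Tlr9 was 2.36-fold higher and Unc93b1 was 2.22-fold higher in ε/ε cells (limma, adjusted p = 0.00886 for Tlr1, adjusted p = 0.0303 for Tlr9 and adjusted p = 0.0207 for Unc93b1, n = 3 arrays per genotype). The 3 genes called were 3 of the 10, against 6.34% of the 12170 genes tested in the same contrast, with a call made at an adjusted p under 0.05. The 10 genes were chosen with earlier results of these data known. In γ1/γ1 cells 0 of the 10 genes passed against wild-type, a contrast in which 0.0411% of the genes tested were called. Tlr1 also passed between ε/ε and γ1/γ1 cells, where it was 2.71-fold lower in ε/ε.

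The promoter windows of Tlr1 and Tlr9 are shown because their signals differed between genotypes in opposite directions. RefSeq's promoter table for GRCm38.p6 held windows of 250 bases before to 50 bases after the annotated start for 7 of the 10 genes, and Tlr4, Tlr7 and Unc93b1 were not among them. Tlr1 lies on the minus strand with 2 annotated starts, in the windows chr5:64933509-64933808 and chr5:64932650-64932949, and Tlr9 lies on the plus strand in chr9:106222348-106222647. Capitals mark every match, on either strand, to the octamer ATGCAAAT or to AGGAAG, 1 purine-rich form of the sites bound by Ets-family factors. Other forms of these sites were not sought and are not marked.
Tlr1, first window: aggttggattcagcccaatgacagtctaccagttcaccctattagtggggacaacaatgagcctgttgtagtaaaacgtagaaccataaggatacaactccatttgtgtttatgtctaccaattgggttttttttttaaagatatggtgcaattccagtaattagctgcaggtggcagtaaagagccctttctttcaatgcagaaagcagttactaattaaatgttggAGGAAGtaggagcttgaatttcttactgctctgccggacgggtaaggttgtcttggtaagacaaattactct
Tlr1, second window: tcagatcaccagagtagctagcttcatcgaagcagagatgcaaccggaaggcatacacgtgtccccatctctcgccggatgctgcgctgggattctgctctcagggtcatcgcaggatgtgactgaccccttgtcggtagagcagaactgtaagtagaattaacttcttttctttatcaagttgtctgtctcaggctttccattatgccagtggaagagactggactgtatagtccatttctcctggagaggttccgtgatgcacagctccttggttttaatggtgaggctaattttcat
Tlr9: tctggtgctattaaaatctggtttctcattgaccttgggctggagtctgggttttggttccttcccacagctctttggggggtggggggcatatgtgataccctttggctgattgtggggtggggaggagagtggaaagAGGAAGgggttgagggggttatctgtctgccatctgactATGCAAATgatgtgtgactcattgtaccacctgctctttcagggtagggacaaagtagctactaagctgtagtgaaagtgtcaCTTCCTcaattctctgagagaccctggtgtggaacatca
The Tlr9 window held the octamer at bases 179 to 186, counted from 1 at the 5′ end of the window. It held AGGAAG at bases 140 to 145 and, on the opposite strand, at bases 262 to 267. The first Tlr1 window held AGGAAG at bases 229 to 234. The second held neither the octamer nor AGGAAG, which does not exclude other forms of Ets site. Of 32851 windows of the same kind, 1.74% held the octamer and 35.4% held AGGAAG. A kappa B motif (in 50.8% of these) and an interferon response motif (in 3.44%) were also sought, and the windows shown held neither. AGGAAG was also in windows of Tlr2, Tlr6 and Ly86, which were not called. These matches are letters in a window, and no binding was measured.

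All values are log2 signals. Each belongs to 1 probe set, and signals of different genes cannot be ranked against each other. The 9 arrays had medians of 3.53 to 3.69 over all probe sets. All 10 genes lay above the array median often enough to be tested, 9 of them on 9 of 9 arrays and Tlr3 on 4 of 9. All 7 B cell markers with a usable probe set, among them Ms4a1, Cd79a and Pax5, lay above the median on every array. Of 19 macrophage and monocyte markers, 17, 12 and 11 lay above the median on ε/ε replicates 1, 2 and 3, against 8 to 9 on the γ1/γ1 arrays and 7 to 9 on the wild-type arrays. Their summed linear signal, on the log2 scale, was 11.25, 8.89 and 8.32 on the ε/ε arrays, 7.95 to 8.09 on the γ1/γ1 arrays and 7.89 to 7.98 on the wild-type arrays. Xist, transcribed from the inactive X chromosome of females, was low on ε/ε replicate 1 (5.25) and γ1/γ1 replicate 1 (4.53) and between 10.37 and 10.79 on the other 7 arrays. The Y-linked Eif2s3y was 7.40 on ε/ε replicate 1 and 7.99 on γ1/γ1 replicate 1. It was 5.40 on ε/ε replicate 2 and 2.75 to 3.64 on the rest. ε/ε replicate 2 also had high Xist (10.49) and was kept among the arrays with high Xist.

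**Figure D1:**
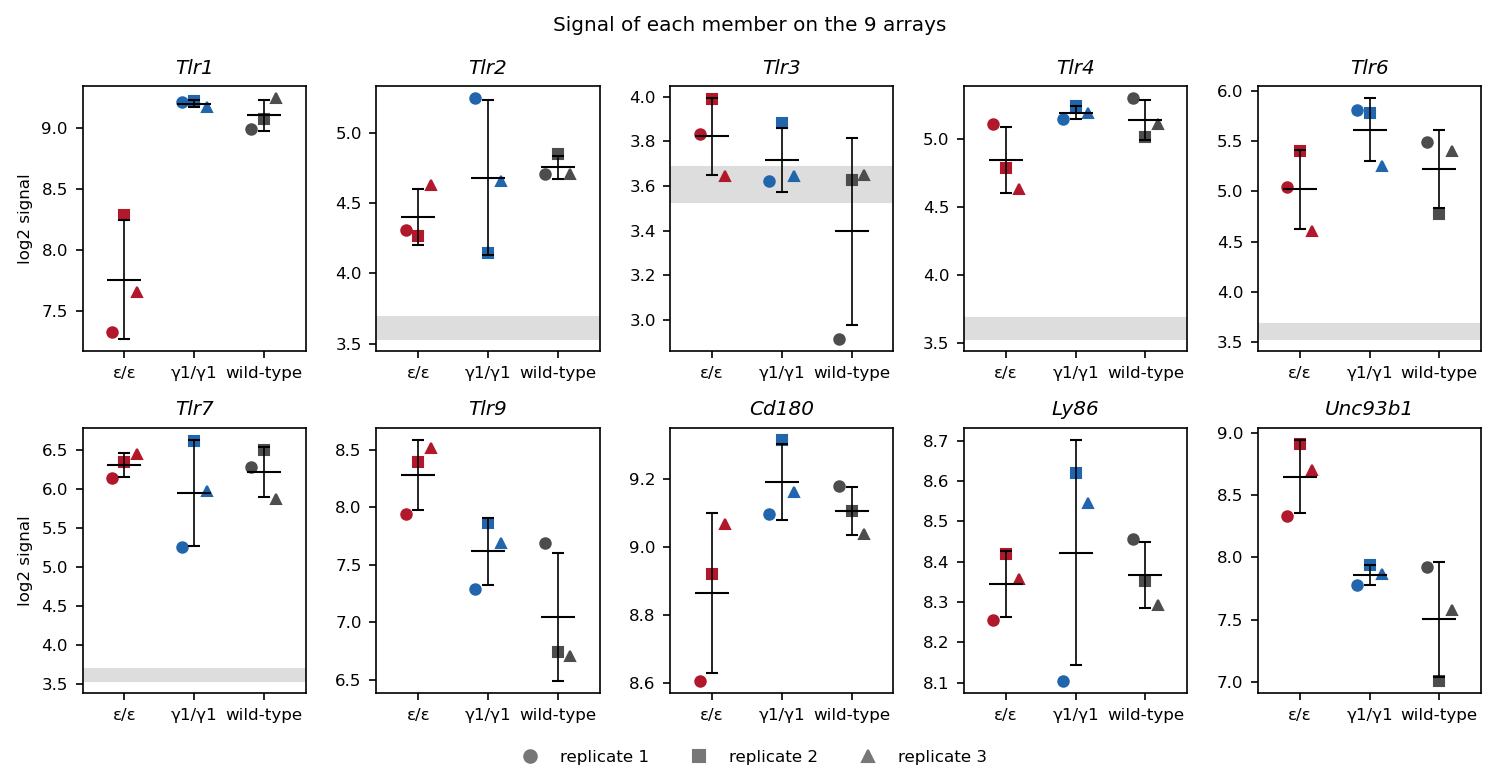
Log2 signal (vertical axis, a separate range in each panel, not starting at 0) of the 10 genes on every array, with ε/ε, γ1/γ1 and wild-type from left to right. Each point is 1 array, with the shape giving the replicate number; the long bar is the mean of 3 arrays and the error bar its SD, and the grey band, drawn where it is in range, spans the array medians of 3.53 to 3.69. The 3 ε/ε arrays lie below all others for Tlr1 (7.33 to 8.28) and above all others for Tlr9 (7.94 to 8.51) and Unc93b1 (8.33 to 8.91).

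Of the surface receptors, Tlr1, which pairs with Tlr2 to bind triacylated lipopeptides, had signals of 7.33, 8.28 and 7.66 on the ε/ε arrays, 9.21, 9.21 and 9.16 on the γ1/γ1 arrays, and 8.99, 9.07 and 9.24 on the wild-type arrays. Every ε/ε array lay below every array of the other genotypes, and the γ1/γ1 and wild-type arrays overlapped. Mean signal was 7.76 ± 0.49 for ε/ε, 9.20 ± 0.03 for γ1/γ1 and 9.10 ± 0.13 for wild-type (SD, n = 3 each). The difference was -1.34 for ε/ε minus wild-type (SE 0.22, 95% interval -1.83 to -0.86) and -1.44 for ε/ε minus γ1/γ1 (SE 0.22, interval -1.92 to -0.96, limma, adjusted p = 0.00990). For γ1/γ1 minus wild-type it was 0.09 (interval -0.39 to 0.58, adjusted p = 0.952). Bulk samples cannot tell fewer cells with Tlr1 from less Tlr1 RNA per cell, and the same holds for each gene below.

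The Tlr1 difference between ε/ε and wild-type passed under all 20 alternatives, with an adjusted p of 0.00264 to 0.0468. Against γ1/γ1 it did not pass when only the 6 arrays compared entered the fit (adjusted p = 0.0577) or when only the 7 arrays with high Xist were used (adjusted p = 0.0618, limma). Without ε/ε replicate 1, the array with the highest macrophage signal, the difference from wild-type was -1.13 (adjusted p = 0.0202). Follicular B cell markers had a summed signal of 10.37 to 10.92 on the ε/ε arrays, 11.09 to 11.31 on the γ1/γ1 arrays and 10.89 to 11.11 on the wild-type arrays, so that ε/ε overlapped wild-type. Their members did not move together. Of the 5 tested, 0 rose and 2 fell in ε/ε against wild-type, against 2.33% higher and 4.02% lower over all genes. The list was chosen with earlier results of these data known. Zfp318 fell by 1.98 (adjusted p = 0.00150) and Cd55 by 0.95 (adjusted p = 0.0136) on the log2 scale. Cxcr5 differed by 0.69 (adjusted p = 0.121), Fcer2a by 0.54 (adjusted p = 0.141) and Ccr7 by -0.05 (adjusted p = 0.956), and the list's median difference was -0.05. The parts of these markers and of macrophage transcripts in the Tlr1 result were not tested.

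Tlr6, the partner of Tlr2 for diacylated lipopeptides and the neighbour of Tlr1 on chromosome 5, had signals of 5.05, 5.40 and 4.61 in ε/ε, 5.81, 5.78 and 5.25 in γ1/γ1, and 5.49, 4.78 and 5.40 in wild-type. Both other genotypes overlapped ε/ε. The difference was -0.20 for ε/ε minus wild-type (interval -0.78 to 0.37, limma, adjusted p = 0.669), and -0.59 for ε/ε minus γ1/γ1 (interval -1.17 to -0.02, adjusted p = 0.237). A change in Tlr6 of the size seen in Tlr1 lies outside the interval against wild-type.

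Tlr2, the shared partner of Tlr1 and Tlr6, had signals of 4.31, 4.26 and 4.63 in ε/ε, 5.25, 4.14 and 4.65 in γ1/γ1, and 4.71, 4.85 and 4.71 in wild-type. The ε/ε arrays lay below the wild-type arrays without overlap, and the γ1/γ1 arrays covered both. The difference from wild-type was -0.36 (interval -0.90 to 0.19, limma, adjusted p = 0.399).

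Tlr4, the receptor for lipopolysaccharide, had signals of 5.11, 4.79 and 4.63 in ε/ε, 5.15, 5.25 and 5.19 in γ1/γ1, and 5.30, 5.01 and 5.11 in wild-type. The ε/ε arrays lay below the γ1/γ1 arrays and overlapped the wild-type arrays. The difference was -0.30 for ε/ε minus wild-type (interval -0.64 to 0.05, limma, adjusted p = 0.268) and -0.35 for ε/ε minus γ1/γ1 (adjusted p = 0.244).

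Cd180 had signals of 8.61, 8.92 and 9.07 in ε/ε, 9.10, 9.31 and 9.16 in γ1/γ1, and 9.18, 9.11 and 9.04 in wild-type. In ε/ε the arrays lay below those of γ1/γ1, by a small gap, and overlapped the wild-type arrays. The difference was -0.24 for ε/ε minus wild-type (interval -0.58 to 0.09, adjusted p = 0.354) and -0.33 for ε/ε minus γ1/γ1 (interval -0.66 to 0.01, limma, adjusted p = 0.263). Ly86, the protein that Cd180 is bound to at the surface, had signals of 8.26, 8.42 and 8.36 in ε/ε, 8.10, 8.62 and 8.54 in γ1/γ1, and 8.46, 8.35 and 8.29 in wild-type. Its genotypes overlapped, and the difference for ε/ε minus wild-type was -0.02 with an interval of -0.38 to 0.33 (adjusted p = 0.948). Neither gene of the pair passed in any contrast, and the intervals leave out a change of 1 log2 unit in either direction.

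Of the endosomal receptors, Tlr9, which binds unmethylated CpG DNA, had signals of 7.94, 8.39 and 8.51 on the ε/ε arrays, 7.29, 7.86 and 7.69 on the γ1/γ1 arrays, and 7.69, 6.74 and 6.70 on the wild-type arrays. The ε/ε arrays lay above all others, and wild-type replicate 1 lay among the γ1/γ1 arrays and apart from the other wild-type arrays. Mean signals were 8.28 ± 0.30 for ε/ε, 7.62 ± 0.29 for γ1/γ1 and 7.04 ± 0.56 for wild-type (SD, n = 3 each). The difference was 1.24 for ε/ε minus wild-type (SE 0.28, interval 0.61 to 1.86), 0.67 for ε/ε minus γ1/γ1 (interval 0.04 to 1.29, limma, adjusted p = 0.222) and 0.57 for γ1/γ1 minus wild-type (interval -0.05 to 1.19, adjusted p = 0.735). The order of the means was ε/ε, γ1/γ1 and wild-type, and only the ends of it differed by the test.

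Unc93b1, the protein that carries Tlr3, Tlr7 and Tlr9 from the endoplasmic reticulum to endosomes, had signals of 8.33, 8.91 and 8.70 on the ε/ε arrays, 7.78, 7.94 and 7.87 on the γ1/γ1 arrays, and 7.92, 7.00 and 7.58 on the wild-type arrays. The ε/ε arrays lay above all others, and the γ1/γ1 arrays lay close together inside the wild-type range at its upper end, apart from 1 array above it. Averages were 8.65 ± 0.29 (ε/ε), 7.86 ± 0.08 (γ1/γ1) and 7.50 ± 0.46 (wild-type) (SD, n = 3 each). The difference was 1.15 for ε/ε minus wild-type (SE 0.23, interval 0.63 to 1.67), 0.79 for ε/ε minus γ1/γ1 (interval 0.27 to 1.31, limma, adjusted p = 0.101) and 0.36 for γ1/γ1 minus wild-type (interval -0.16 to 0.88, adjusted p = 0.797).

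The calls of Tlr9 and Unc93b1 were less stable than that of Tlr1. Tlr9 did not pass under 6 of 20 alternatives, among them the fit with only the 6 arrays compared (adjusted p = 0.0743) and those without ε/ε replicate 2 (0.0694) or 3 (0.0780), or without wild-type replicate 2 (0.128) or 3 (0.113). Unc93b1 did not pass under 5 of 20, with the 6 arrays alone (adjusted p = 0.0674), without ε/ε replicate 2 (0.0521) or 3 (0.0502), or without wild-type replicate 2 (0.0674) or 3 (0.0665). The differences stayed positive in all of these limma fits, between 1.07 and 1.56 for Tlr9 and between 0.90 and 1.36 for Unc93b1 over the 20 alternatives. ε/ε replicate 1, with the highest macrophage signal, had the lowest Tlr9 and Unc93b1 of the ε/ε arrays, and without it both passed (differences of 1.41 and 1.31, adjusted p = 0.0377 and 0.0275). Leaving it out does not remove the macrophage difference. ε/ε replicates 2 and 3 had macrophage sums of 8.89 and 8.32, against at most 8.09 in γ1/γ1 and 7.98 in wild-type. B cell markers also had their highest summed signal in ε/ε, with 12.40, 12.52 and 12.46 on the ε/ε arrays, 12.03, 12.21 and 12.21 on the γ1/γ1 arrays, and 12.26, 11.83 and 12.09 on the wild-type arrays. Of the 7 markers, 1 rose in ε/ε against wild-type (against 2.33% higher over all genes), Blnk by 0.79 (adjusted p = 0.0156). The 7 differences ran from 0.09 (Ms4a1) to 1.07 (Cd79a, adjusted p = 0.0568), with a median of 0.25. Wild-type replicate 1 had the highest Tlr9, Unc93b1 and B cell marker sum of the wild-type arrays. The parts of macrophage transcripts and of the B cell markers' shift in both results were not tested.

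Tlr7, the receptor for single-stranded RNA, had signals of 6.15, 6.35 and 6.45 in ε/ε, 5.26, 6.62 and 5.97 in γ1/γ1, and 6.28, 6.51 and 5.88 in wild-type. The genotypes overlapped, and the difference for ε/ε minus wild-type was 0.09 (interval -0.58 to 0.77, limma, adjusted p = 0.885). Tlr7 lies on the X chromosome, and its lowest signals in ε/ε and in γ1/γ1 were on the arrays with low Xist. Of these, ε/ε replicate 1 (6.15) still lay above high-Xist wild-type replicate 3 (5.88) and γ1/γ1 replicate 3 (5.97). With only the 7 arrays with high Xist the difference for γ1/γ1 minus wild-type was 0.07, against -0.27 with all arrays, and neither passed. Whether low Xist had a part in the Tlr7 signal was not tested.

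Tlr3, the receptor for double-stranded RNA, had signals of 3.83, 3.99 and 3.65 in ε/ε, 3.62, 3.88 and 3.65 in γ1/γ1, and 2.91, 3.63 and 3.65 in wild-type. These lie around the array medians, so this probe set gave little signal in any genotype. The difference for ε/ε minus wild-type was 0.42 (interval -0.04 to 0.89, limma, adjusted p = 0.238). Of the 3 endosomal receptors measured, Tlr9 was the one called.

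**Figure D2:**
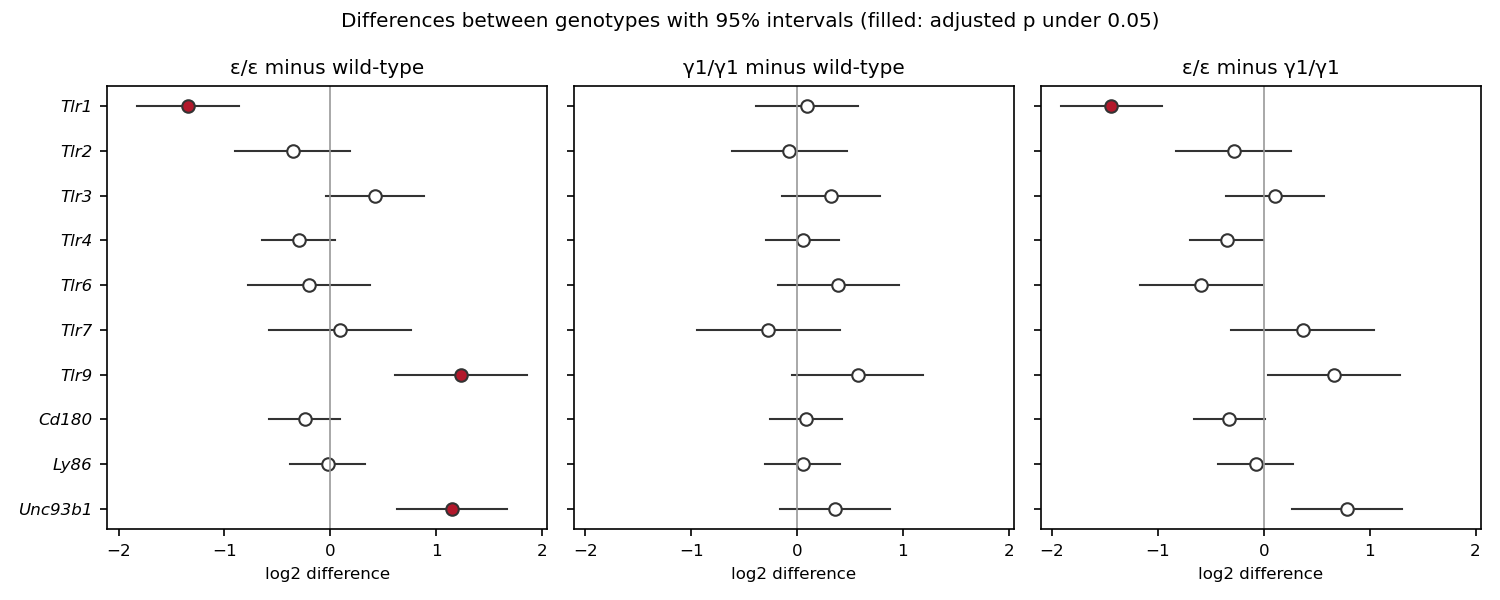
Differences in log2 signal (horizontal axis) of the 10 genes in 3 panels, one for each contrast (ε/ε minus wild-type at the left, γ1/γ1 minus wild-type in the middle, ε/ε minus γ1/γ1 at the right). Points are limma estimates and bars are 95% intervals, not adjusted over genes; filled points passed at an adjusted p under 0.05. Tlr1 stands at -1.34 and -1.44 in the contrasts with ε/ε and at 0.09 between γ1/γ1 and wild-type.

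Read over the 10 genes, the ε/ε arrays and the wild-type arrays did not overlap for 4 genes (Tlr1 and Tlr2 below, Tlr9 and Unc93b1 above), against 28.4% of all genes tested. An unadjusted p under 0.05 was found for 3 of the 10 in this contrast, against 24.8% of all genes. The ε/ε and γ1/γ1 arrays did not overlap for 5 genes (Tlr1, Tlr4 and Cd180 below, Tlr9 and Unc93b1 above), against 21.1% of all genes, while 1 of the 10 passed limma's adjusted threshold against 2.66% of all genes (1.02% higher and 1.64% lower in ε/ε). At an unadjusted p under 0.05 there were 5 of the 10, against 19.9% of all genes. For γ1/γ1 against wild-type the arrays overlapped for all 10, against 12.4% of all genes that did not overlap. In that contrast limma called 0 of the 10 genes, and 0 had an unadjusted p under 0.05, against 0.0411% (0.0247% higher and 0.0164% lower in γ1/γ1) and 6.82% of all genes. The members' differences from wild-type ran from -0.27 to 0.57 in γ1/γ1, and from -1.34 to 1.24 in ε/ε. The median difference of the 10 from wild-type was -0.11 in ε/ε and 0.09 in γ1/γ1, against -0.01 and -0.02 over all genes tested. Both comparisons with wild-type share the wild-type arrays.

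limma's F test for any difference among the 3 genotypes called 2 of the 10 genes, against 4.11% of all genes: Tlr1 (adjusted p = 0.0105) and Unc93b1 (adjusted p = 0.0455). Tlr9 had an adjusted p of 0.0708, and the other 7 had 0.315 or more. The F test's call was lost under 11 of 19 alternatives for Unc93b1 and under 1 of 19 for Tlr1, whereas Tlr9 passed under 4 of 19. The directions of Tlr1, Tlr9 and Unc93b1 were the same under quantile normalization and after centring each array on its median. The split of all calls between directions was not: of the genes called for ε/ε minus wild-type, 36.7% were higher in ε/ε with the deposited values, 57.8% after quantile normalization and 45.6% after centring. For ε/ε minus γ1/γ1 these shares were 38.3%, 53.4% and 54.5%.

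**Figure D3:**
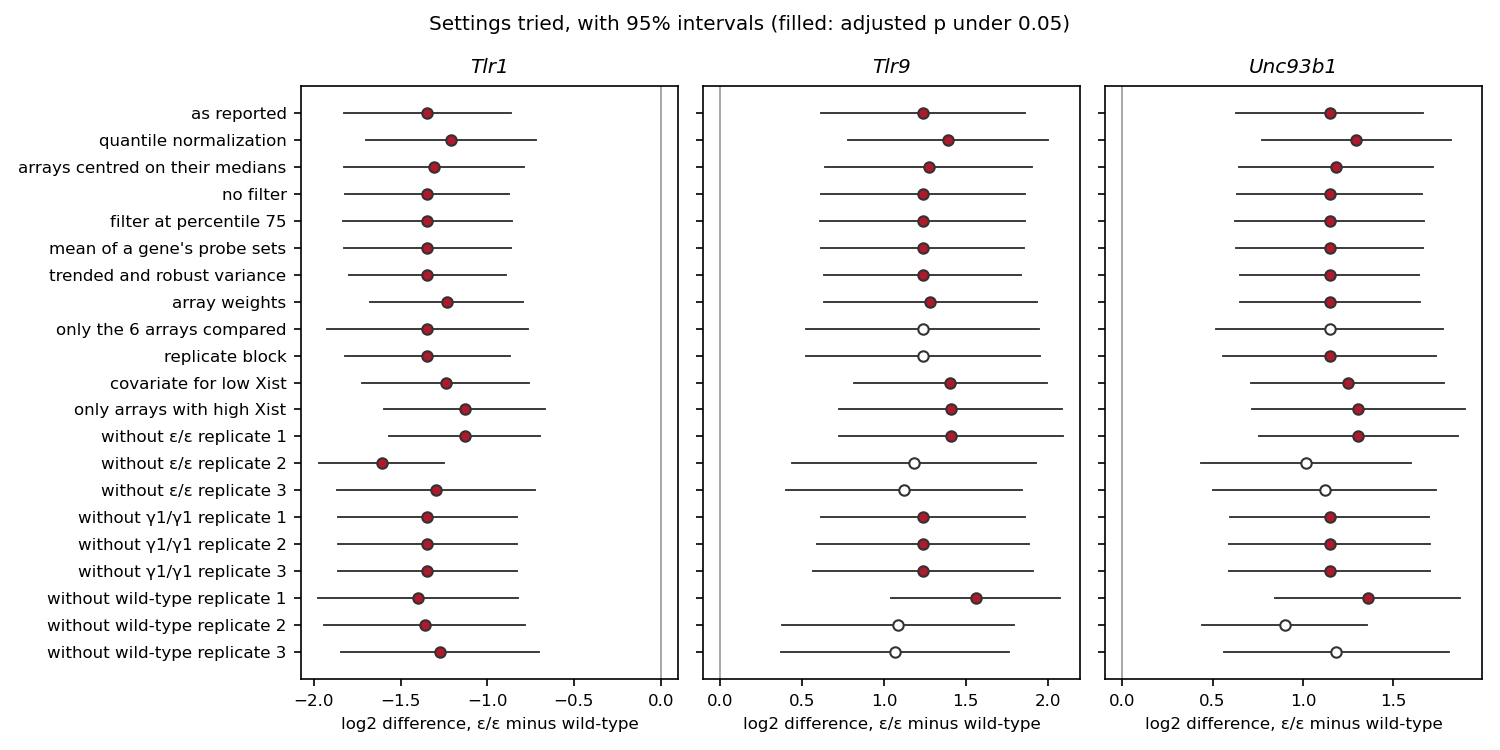
Difference in log2 signal for ε/ε minus wild-type (horizontal axis) of Tlr1, Tlr9 and Unc93b1 under each processing alternative (vertical axis), with 95% intervals. Filled points passed at an adjusted p under 0.05; Tlr1 stays between -1.61 and -1.13, Tlr9 between 1.07 and 1.56 and Unc93b1 between 0.90 and 1.36.

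The rest of the pathway was read from 8 lists of 118 genes, chosen with earlier results of these data known. Of these genes, 105 had a probe set with a single symbol and 88 were tested. Over all genes tested, limma called 6.34% for ε/ε minus wild-type, 0.0411% for γ1/γ1 minus wild-type and 2.66% for ε/ε minus γ1/γ1. An unadjusted p under 0.05 was found for 24.8%, 6.82% and 19.9% of all genes in these contrasts. The 5 other Toll-like receptors were dim: of Tlr5, Tlr8, Tlr11, Tlr12 and Tlr13, 2 were tested and 0 passed in any contrast (0 also at an unadjusted p under 0.05, limma). Tlr13 and Tlr8, which are receptors of myeloid cells, read 4.85 and 3.55 on ε/ε replicate 1 and at most 3.25 and 3.02 on any other array. Whether macrophage transcripts had a part in these 2 signals was not tested. Of the 4 co-receptors and ligand-binding proteins tested, 0 passed against wild-type in either genotype (1 at an unadjusted p under 0.05 in each contrast), and 1 passed between ε/ε and γ1/γ1. That gene was Cd36, a scavenger receptor that helps Tlr2 bind lipids. It read 6.44, 7.31 and 7.18 in ε/ε, 5.46, 5.44 and 4.76 in γ1/γ1, and 6.04, 6.24 and 6.21 in wild-type, so that the genotypes did not overlap. It was 1.76 higher in ε/ε than in γ1/γ1 (adjusted p = 0.00879) and 0.82 higher than in wild-type (adjusted p = 0.0829).

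Among 10 folding, trafficking and processing factors other than Unc93b1, limma called 0 against wild-type in either genotype. Of the 10, 2 in ε/ε and 1 in γ1/γ1 had an unadjusted p under 0.05, against 24.8% and 6.82% of all genes. In ε/ε the smallest p-values were those of Slc15a4, an endosomal transporter needed for Tlr7 and Tlr9 signalling, at -0.63 (adjusted p = 0.189), and of the protease Ctsb at 1.78 (adjusted p = 0.0958). In γ1/γ1 the smallest was that of the chaperone Hsp90b1, which Toll-like receptors need to fold, at -0.44 (adjusted p = 0.521). Ctsb read 8.78, 7.15 and 5.94 on the ε/ε arrays, in the same order as the macrophage markers, against 5.16 to 6.16 on the γ1/γ1 arrays and 5.08 to 5.89 on the wild-type arrays. An order shared by 3 arrays is weak evidence, and whether macrophage transcripts had a part in the Ctsb difference was not tested. Of 19 adaptors, kinases and ubiquitin enzymes, 0 passed in ε/ε or γ1/γ1 against wild-type (2 at an unadjusted p under 0.05 in each). Tirap, the adaptor that bridges Tlr2 and Tlr4 to Myd88, differed by 0.87 in ε/ε (adjusted p = 0.107), and the kinase Ikbke by 0.43 (adjusted p = 0.175). Of 5 downstream transcription factors 0 passed (2 at an unadjusted p under 0.05 in ε/ε, 0 in γ1/γ1), with the NF-κB subunits in ε/ε at these differences from wild-type: Rela at 0.77 (adjusted p = 0.155) and Rel at -0.43 (adjusted p = 0.156). Of 17 interferon-stimulated genes 0 passed (3 at an unadjusted p under 0.05 in ε/ε, 1 in γ1/γ1), with a median difference of -0.004 in ε/ε.

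The calls of the wider pathway against wild-type lay in 2 lists. Of 17 negative regulators, 2 rose and 1 fell in ε/ε against wild-type (against 2.33% higher and 4.02% lower over all genes). Of the 17, 9 had an unadjusted p under 0.05, against 24.8% of all genes. In γ1/γ1 0 passed, against 0.0411% of all genes, and 1 had an unadjusted p under 0.05 (limma), against 6.82%. Dusp1, a phosphatase that switches off MAP kinases, read 8.16, 7.24 and 7.46 in ε/ε, 6.53, 6.60 and 6.60 in γ1/γ1, and 6.30, 5.94 and 5.57 in wild-type. All ε/ε arrays lay above the rest, with replicate 1, which had the highest macrophage signal, on top, and the difference from wild-type was 1.68 (SE 0.25, adjusted p = 0.00607). Whether macrophage transcripts had a part in the Dusp1 difference was not tested. Zc3h12a, an RNase that degrades inflammatory mRNAs, rose by 0.83 (adjusted p = 0.0475), and Otud4, a deubiquitinase that acts on Myd88, fell by 0.72 (adjusted p = 0.0341). Dusp1 passed under all 20 alternatives, whereas Otud4 did not pass under 10 of 20 and Zc3h12a under 13 of 20.

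Of 14 genes tested that Toll-like receptor stimulation is known to raise in B cells, 7 rose and 0 fell in ε/ε against wild-type, against 2.33% of all genes called higher and 4.02% called lower. The list's median difference was 0.66, against -0.01 over all genes. Traf1, an adaptor of the TNF receptor family, read 6.11, 6.15 and 6.20 in ε/ε, 5.55, 6.15 and 6.38 in γ1/γ1, and 4.82, 4.63 and 4.51 in wild-type. The ε/ε and γ1/γ1 arrays overlapped, and all lay above wild-type. The difference was 1.50 for ε/ε minus wild-type (SE 0.20, adjusted p = 0.00404) and 1.37 for γ1/γ1 minus wild-type (adjusted p = 0.0957, limma). Nfkb2, the precursor of an NF-κB subunit, read 6.82, 6.72 and 6.76 in ε/ε, 5.91, 6.31 and 6.37 in γ1/γ1, and 5.89, 4.99 and 5.27 in wild-type. It rose by 1.38 in ε/ε (adjusted p = 0.00899). Nfkbie, an inhibitor of NF-κB, rose by 1.40 (adjusted p = 0.0440), and Bcl3, a nuclear partner of NF-κB, by 1.08 (adjusted p = 0.0220). The others that rose were Cd69, Myc and Nfkbia. These genes also answer the B cell receptor and CD40, so the list is not specific to Toll-like receptors. The list was also chosen with earlier results of these data known, so its count is not independent of them.

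That count of 7 depended on single arrays. Leaving out ε/ε replicate 1 gave 3, and leaving out replicate 2 or 3 of that genotype gave 4. Among the wild-type arrays, leaving out replicate 1 gave 4 and leaving out either of the others gave 2. Leaving out γ1/γ1 replicate 2 or 3, which enter this contrast through the variance alone, gave 4. Nfkb2 and Traf1 passed under all 20 alternatives, whereas the call was lost for Bcl3 under 5 of 19, for Myc under 9 of 20, for Nfkbie under 11 of 20, for Cd69 under 12 of 20 and for Nfkbia under 14 of 20. In γ1/γ1 against wild-type 0 of the 14 passed in limma, against 0.0411% of all genes, with a median difference of 0.31. An unadjusted p under 0.05 was found for 3 of them, against 6.82% of all genes. Between ε/ε and γ1/γ1 0 rose and 1 fell (against 1.02% higher and 1.64% lower over all genes). That gene was Plek, a protein kinase C substrate, lower by 0.82 on the log2 scale (adjusted p = 0.0458).

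**Figure D4:**
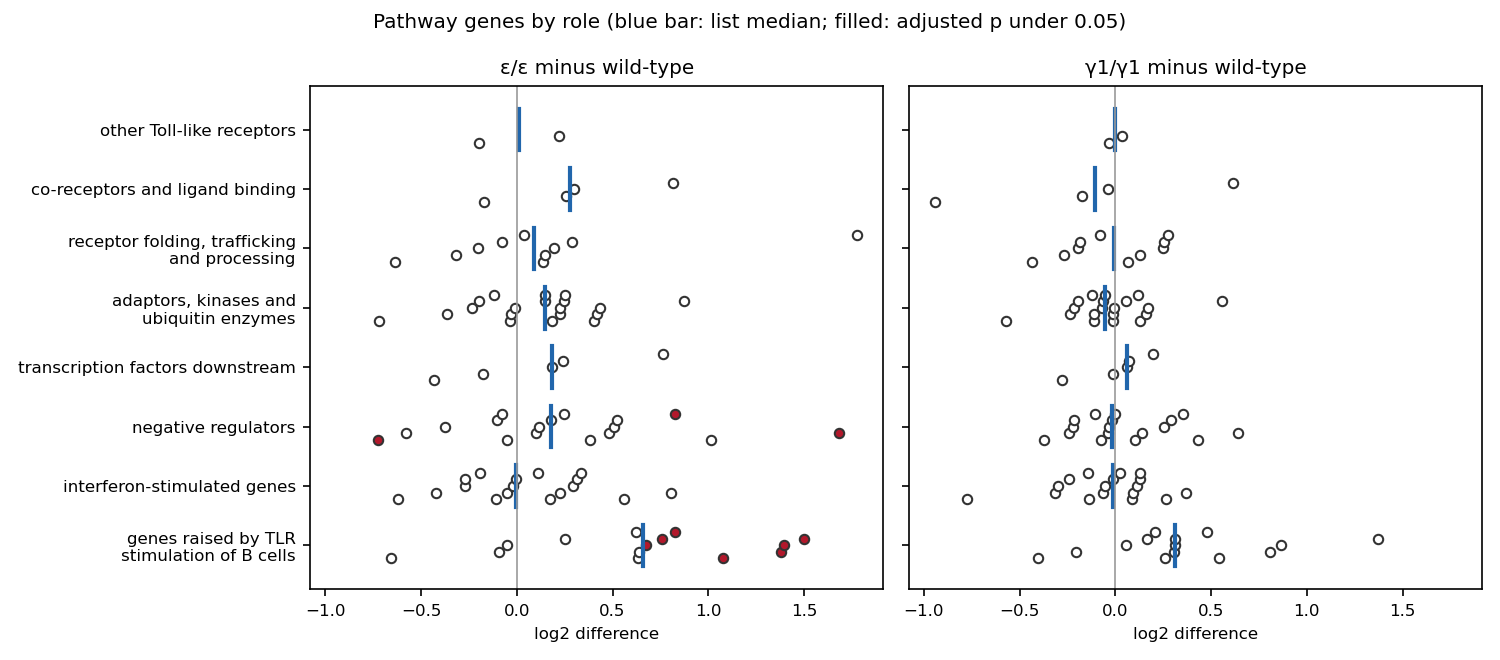
Difference in log2 signal for ε/ε minus wild-type and for γ1/γ1 minus wild-type (horizontal axis) of the tested genes in 8 pathway lists (vertical axis). Each point is 1 gene, filled where limma's adjusted p was under 0.05, and bars mark each list's median. The genes raised by stimulation have medians of 0.66 in ε/ε and 0.31 in γ1/γ1.

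Some marginal zone B cell markers rose in ε/ε, as Tlr9 and Unc93b1 did. The marker list was chosen with earlier results of these data known, so its counts are not independent of them. The summed signal of the list was 9.84 to 10.23 on the ε/ε arrays, 9.51 to 9.79 on the γ1/γ1 arrays and 8.51 to 8.97 on the wild-type arrays. The list's median signal was 5.69 to 6.20 on the ε/ε arrays, 4.76 to 5.27 on the γ1/γ1 arrays and 4.49 to 4.83 on the wild-type arrays, so that ε/ε lay above the others and γ1/γ1 overlapped wild-type. Of 10 tested, 6 rose and 0 fell in ε/ε against wild-type (against 2.33% higher and 4.02% lower over all genes), among them Il9r by 2.82 (adjusted p = 0.00152), Ackr3 by 2.28 (adjusted p = 0.00127), Myof by 1.68 (adjusted p = 0.00378) and Ptpn14 by 1.24 (adjusted p = 0.00936). Of the 4 that did not pass, Cd36 differed by 0.82, Cd9 by 0.07, Cd1d1 by -0.17 and S1pr1 by -0.35. In γ1/γ1 1 rose against wild-type (against 0.0247% higher over all genes), Il9r by 2.98 (adjusted p = 0.0122, limma). Il9r averaged 8.81 in γ1/γ1 and 5.84 in wild-type, a gap that enters the summed signal, and this call was lost under 5 of 20 alternatives (adjusted p up to 0.0855). Of 12 macrophage and monocyte markers tested 0 passed in any contrast (5 at an unadjusted p under 0.05 for ε/ε minus wild-type, against 24.8% of all genes). Their median difference was 1.11 for ε/ε minus wild-type and 0.38 without ε/ε replicate 1. With all arrays the 12 differences ran from -0.20 to 2.91. C1qb at 2.39 (limma, adjusted p = 0.0505) and C1qa at 1.22 (adjusted p = 0.0509) fell just short of a call. Csf1r, set aside by the filter, read 7.25, 5.15 and 3.50 on the ε/ε arrays. It read 3.20 to 3.51 on the γ1/γ1 arrays and 3.23 to 3.31 on the wild-type arrays. Of the markers of other cells, 5 of B-1 cells, 3 of plasma cells, 4 of dendritic cells, 3 of T and NK cells, 1 of neutrophils and 1 of erythroid cells and platelets were tested, and 0 passed in limma in any contrast (for ε/ε minus wild-type, 1 plasma cell and 1 dendritic cell marker had an unadjusted p under 0.05). The part of marginal zone cells in the results for Tlr1, Tlr9 and Unc93b1 was not tested.

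**Figure D5:**
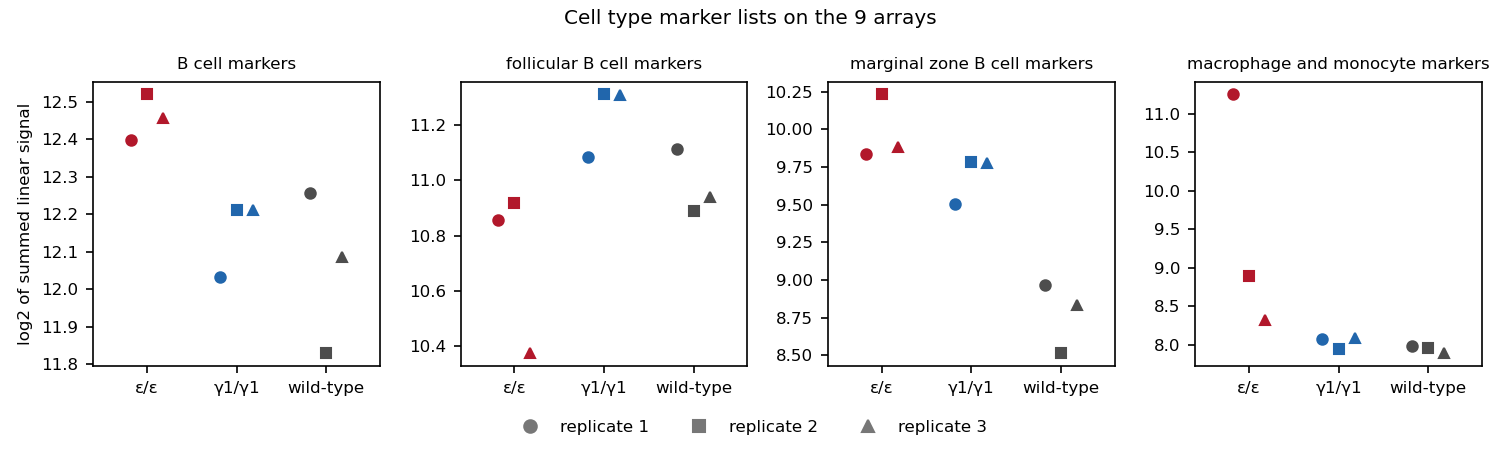
Log2 of the summed linear signal (vertical axis, not starting at 0) of cell type marker lists on every array, with ε/ε, γ1/γ1 and wild-type from left to right; points are arrays, with the shape giving the replicate number. The macrophage sum is 11.25 on ε/ε replicate 1 and at most 8.89 elsewhere, and the marginal zone sum is 9.84 to 10.23 in ε/ε, 9.51 to 9.79 in γ1/γ1 and 8.51 to 8.97 in wild-type, where Il9r alone passed between γ1/γ1 and wild-type.

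The genes whose signals were most like those of the members were ranked by Pearson's r over the 9 arrays, which share the genotype groups, so a difference between genotypes that 2 genes share is enough for a high r. For Tlr1 these were the zinc finger gene Zfp329 (r = 0.992), the adaptor gene Grap2 (r = 0.982) and AI504432 (r = 0.982), with differences of -0.91, -2.07 and -2.45 for ε/ε minus wild-type. For Unc93b1 they were Phf1 (r = 0.973), a chromatin protein, Blnk (r = 0.971), the linker between the B cell receptor and its kinases, and Dtx1 (r = 0.969), a regulator of Notch signalling and one of the marginal zone markers. For Tlr9, added after its values were seen, they were Spib (r = 0.976), an Ets-family factor of B cells, Ly6d (r = 0.970) and Tmem123 (r = 0.968).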

How the data were processed

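RNA of sorted splenic follicular B cells was extracted with TRIzol, amplified, labelled with biotin and hybridised to 9 arrays, per the labels' protocols. The deposited values are log2 signals, already processed by the authors, for 41345 probe sets. The submitters' processing notes name R 3.3.1; the log2 scale was inferred from the values' range, and of the background correction, normalization and probe summary nothing is given in the sources used here. Scanner files were not analysed here. 0 pairs of arrays held identical values.

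The platform annotation gave 23521 probe sets 1 symbol and 1814 several, and 16010 are unnamed here. The brightest probe set stood for each of 22180 genes (1082 had more than 1). A gene was tested when above the array's median signal on at least 3 of 9 arrays, which left 12170 and set aside 10010. All 9 arrays entered 1 limma 3.58.1 fit (R 4.3.3), with a mean per genotype, no covariate, 6 residual degrees of freedom and eBayes. P-values, all from limma, had Benjamini-Hochberg adjustment over all 12170 genes, with calls under 0.05. Intervals are 95% and not adjusted over genes. Figures were drawn with matplotlib 3.10.9. The fit was tested on simulated data.

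The members and lists were chosen with earlier results of these data known. All 10 members are named. Of each list, up to 4 called genes with the largest difference from wild-type are named, or the 2 with the smallest p where none was called. For members past the F test, the 3 genes with the highest Pearson's r are named. Plek, Cd69, Myc, Nfkbia, Tlr8, Tlr13, Cxcr5, Ccr7, Cd9, S1pr1, C1qa, C1qb, Csf1r and the genes like Tlr9 were named after their values were seen.

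Alternatives were quantile normalization, median centring, no filter or one at the 75th percentile, a mean over each gene's probe sets, trended and robust variance, array weights, only the 6 arrays compared, a replicate block, a covariate for low Xist, only arrays with high Xist, other thresholds, and each array left out.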

Additional observations from a re-analysis of the deposited data

How the results depend on the processing

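The 10 members' differences were recomputed under 22 alternatives, and 576 of 594 values kept their sign; no reversed value had been called. Of the members called for ε/ε minus wild-type, 1 stayed called with only the 6 arrays compared, against 3 in the full fit, and 1 to 3 with 1 array left out. For ε/ε minus γ1/γ1 the count fell to 0 with only the 6 arrays compared and with only the arrays with high Xist. The F test called 1 member with no filter, 1 with the replicate block and 0 with high Xist arrays, and 1 to 3 with 1 array left out, against 2. For γ1/γ1 minus wild-type it was 0 throughout.

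Over all genes, ε/ε minus wild-type gave 772 calls, 424 with only the 6 arrays compared, 1626 at an adjusted p under 0.1, 347 with a difference of at least 1, and 186 (without wild-type replicate 2) to 789 with 1 array left out. γ1/γ1 minus wild-type gave 5 calls, 0 with only the 6 arrays compared, 0 with the replicate block, 3 with high Xist arrays, and 0 to 6 with 1 array left out. ε/ε minus γ1/γ1 gave 324 calls, 56 with only the 6 arrays compared, 513 with a covariate for low Xist, 88 with high Xist arrays, 803 at an adjusted p under 0.1, 173 with a difference of at least 1, and 122 to 330 with 1 array left out. The F test gave 500 calls, 190 with high Xist arrays, 1076 at an adjusted p under 0.1, and 173 to 399 with 1 array left out. Fits with fewer arrays estimate the spread from fewer samples; the cause of the other shifts was not tested.

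Small differences changed sign, none of them called. Ly86 in ε/ε minus wild-type was 0.1317 with quantile normalization, 0.0132 with centring, 0.0032 with array weights, 0.0791 with the Xist covariate and 0.0214 with high Xist arrays. With high Xist arrays Tlr7 was 0.0749 in γ1/γ1 minus wild-type and Tlr2 was 0.0458 in ε/ε minus γ1/γ1, and with the covariate Tlr4 was -0.0018 in γ1/γ1 minus wild-type. With 1 array left out, ε/ε minus wild-type ran from -0.4245 to 0.0011 for Tlr6, -0.079 to 0.2371 for Tlr7 and -0.0604 to 0.0217 for Ly86. Likewise γ1/γ1 minus wild-type ran from -0.3556 to 0.1964 for Tlr2, -0.0108 to 0.1323 for Tlr4, -0.6063 to 0.0749 for Tlr7 and -0.0432 to 0.2149 for Ly86, and ε/ε minus γ1/γ1 from -0.2376 to 0.0205 for Ly86.

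The numbers of the replicates did not pair the samples: deviations of same-numbered arrays correlated at -0.09 to 0.16 and those of other arrays at -0.07 to 0.08. With the replicate block, Tlr9 for ε/ε minus wild-type had an adjusted p of 0.0579, 2 of the 3 members stayed called, and 668 genes were called.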
